A study of Mus musculus and blank sample with 191 samples.

Results

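The matrix metalloproteinases Mmp2, Mmp3, Mmp7, Mmp9, Mmp11 and Mmp14 and the tissue inhibitors of metalloproteinases Timp1, Timp2 and Timp3 were described in the epithelium and stroma of the mouse uterus. These 9 genes were taken by symbol from the 19962 targets of the count table, and all 9 were among the 14881 targets that the authors kept after their filter on detection. The tissue came from mice heterozygous for the PV allele of the thyroid hormone receptor alpha 1 gene (genotype PV/N, Thra1PV/+, here PV) and from wild-type mice (N/N, here WT). PV is a knock-in allele present in every tissue, and it codes for a frameshifted receptor that blocks the normal one. Spatial whole-transcriptome profiles (GeoMx) were made from regions of sections through fixed, paraffin-embedded uterus cores, and the females were matched for estrous cycle according to the methods of the study. The 6 PV mice were 2.4 to 6.3 months old, 4 of them under 5 months. The 8 WT mice were 4.0 to 9.0 months old, 2 of them under 5 months. A pathologist chose the regions by morphology and by staining for cytokeratin and smooth muscle actin, and lining and gland epithelium are not separated here.

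Matrix metalloproteinases are zinc enzymes that cut collagens, proteoglycans and other proteins of the extracellular matrix, and most are secreted as inactive proenzymes. The Timps bind the active site and block it, and Timp2 also serves with the membrane-anchored Mmp14 in the activation of proMmp2. In the uterus these enzymes are known for the remodelling of the endometrium over the cycle, at implantation and after birth.

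All 9 genes are protein coding on GRCm38 (GENCODE vM21). Mmp3 (chr9:7445822-7455975) and Mmp7 (chr9:7692090-7699585) lie on the same chromosome and strand. Mmp2 lies at chr8:92827291-92853420, Mmp9 at chr2:164940780-164955850, Mmp11 at chr10:75923222-75936496 on the minus strand, Mmp14 at chr14:54431612-54445364, Timp1 at chrX:20870166-20874735, Timp2 at chr11:118301069-118355740 on the minus strand and Timp3 at chr10:86300372-86349506. RefSeq promoters (GRCm38.p6, 250 bases before to 50 after an annotated start) matched 7 of the 9 genes, and Mmp2 and Mmp9 were not matched. The 110 bases just before the annotated start are printed for 4 of them, all on the plus strand. Mmp7 is shown as the gene that was higher in epithelium below and Mmp3 as a member on the same chromosome and strand. Mmp14 and Timp1 are shown as a protease and an inhibitor of the other promoter type. Capitals mark matches on either strand to TGANTCA (the AP-1 motif), TATAAA (the TATA box) and GGGCGG (the GC box, CCGCCC on the other strand).
Mmp3, chr9:7445712-7445821: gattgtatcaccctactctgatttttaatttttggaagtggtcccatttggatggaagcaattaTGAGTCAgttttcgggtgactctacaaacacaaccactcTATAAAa
Mmp7, chr9:7691980-7692089: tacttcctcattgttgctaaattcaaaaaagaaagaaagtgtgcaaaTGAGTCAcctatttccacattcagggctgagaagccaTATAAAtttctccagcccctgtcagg
Mmp14, chr14:54431488-54431597: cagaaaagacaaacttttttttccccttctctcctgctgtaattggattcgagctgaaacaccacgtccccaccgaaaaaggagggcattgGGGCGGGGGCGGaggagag
Timp1, chrX:20870056-20870165: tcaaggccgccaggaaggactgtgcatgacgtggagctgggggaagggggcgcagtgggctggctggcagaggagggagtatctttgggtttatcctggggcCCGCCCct

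The promoters of Mmp3 and Mmp7 held both the AP-1 motif and the TATA box and no GC box, and 1.54% of 32851 promoters of the same length held the first 2. A second annotated start of Mmp7 held none of the 3 motifs. The promoters of Mmp11, Mmp14, Timp1, Timp2 and Timp3 held the GC box and neither of the others, and 34.2% of promoters held it without the AP-1 motif. The Mmp11 window (chr10:75932453-75932752) lay inside the gene span given above and not at its outer start. The AP-1 motif was in 7.81%, the TATA box in 13.6% and the GC box in 35.7% of promoters. A match describes these letters only.

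The values come from 60 epithelium and 35 stroma regions of the first plate, with 61691 to 3130397 counts per region (median 653387). Counts were summed per mouse and compartment to 61691 to 13492532 in epithelium and 85336 to 5195248 in stroma, so the mouse was the replicate. WT6 had no stroma region on this plate, which left 13 mice with both compartments. PV2 had 1 shallow region in each compartment, and its epithelium held a single count for 7 of the 9 genes, the value that also replaces 0 in this table. In 95 of 95 first-plate regions the difference between the columnar epithelium and the fibroblast marker lists fell on the labelled side. On the second plate it did so in only 54 of 94 regions, and in 40 it fell on the other side. The main results use the first plate only, by the rule that defined this set of genes and samples. The columnar list (Krt8, Epcam and others) summed to 2794 to 8964 CPM (counts scaled to a common library size) per mouse in epithelium and to 213 to 664 in stroma. The fibroblast list (Col1a1, Dcn and others) summed to 391 to 1860 CPM in epithelium and to 3016 to 17885 in stroma.

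The negative probes, which match no mouse transcript, give the background of a region. Mmp14, Mmp2, Timp2, Mmp11 and Timp3 were over 5 times it in the stroma of every mouse. Mmp14 reached 8.44 to 199 times the summed negative-probe level in stroma, Mmp2 22.1 to 194 times and Timp2 15.2 to 117 times. Mmp11 had the widest range, from 5.14 times in PV6 to 211 times. Timp3 reached 8.41 to 51.5 times. Mmp3, Mmp9 and Timp1 had group medians of 1.34 to 3.19 times the background in both compartments, with at most 3.65 times for Mmp3, 5.49 times for Mmp9 and 4.86 times for Timp1 in any mouse, and in 0 regions were they over 10 times. Differences of these 3 genes therefore rest on few counts, with group medians of 9.5 to 24.5 counts per mouse. Mmp7 was far above the background only in the epithelium of some mice, where it ran from 0.956 to 82.2 times, against 0.753 to 4.81 times in stroma.

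**Figure D1:**
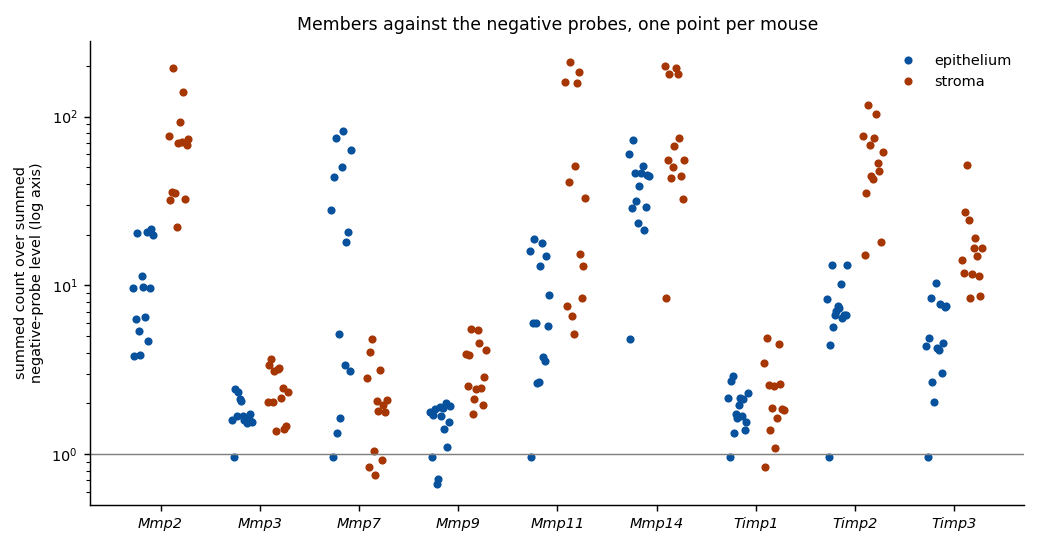
Summed count of each gene divided by the summed negative-probe level, on a log axis, with 1 point per mouse in epithelium (blue) and stroma (orange). The grey line marks the negative-probe level. Mmp3, Mmp9 and Timp1 lie below 6 times that level in every mouse, while Mmp2, Timp2 and Mmp14 lie above 8 times in the stroma of every mouse.

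The first comparison asked in which compartment each gene was higher within a mouse. All 9 genes differed between epithelium and stroma at an adjusted p under 0.05 (edgeR quasi-likelihood test, mouse as a block), where 63.2% of all targets did. Of these, 8 were higher in stroma, against 34.3% of all targets, and Mmp7 alone was higher in epithelium, against 28.9%. The median log2 fold change of the 9 genes was -1.21 (epithelium over stroma), and that of all targets was -0.04. In such regions more cells of a type and more RNA per cell cannot be told apart. Levels of different genes are not set against each other, since each target has its own probe.

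Mmp2, the gelatinase that cuts basement membrane collagen, measured 220 CPM in the lowest, 506 in the median and 658 in the highest WT stroma. In PV stroma it ran from 189.5 over a median of 319 to 832 CPM. In epithelium it ran from 30.3 over 77.9 to 115 CPM in WT and from 20.4 over 49.6 to 90.0 in PV mice. The ranges of the 2 compartments did not overlap in either genotype, and stroma was higher in 13 of 13 mice. The level in stroma was 7.43-fold that in epithelium (log2 fold change -2.89 ± 0.13 SE, adjusted p = 2.14e-12).

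Timp2, which both inhibits metalloproteinases and serves in the activation of proMmp2, had the same order. It measured 156, 323 and 619 CPM in the lowest, median and highest WT stroma and 183, 404 and 503 in PV stroma. Epithelium held 35.7, 46.9 and 66.8 CPM in WT and 15.0 (PV2, from 1 count), 34.4 and 58.3 in PV mice. Stroma was higher in 13 of 13 mice, by 8.28-fold (log2 fold change -3.05 ± 0.16 SE, adjusted p = 9.06e-12).

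Mmp14, the membrane-anchored protease that activates proMmp2, was also measured clearly in epithelium. Its WT epithelium ran from 137 over 232 to 260 CPM and its PV epithelium from 75.1 over 209 to 324. WT stroma ran from 283 over 352 to 1357 CPM and PV stroma from 102 over 407 to 1126. Ranges did not overlap in WT mice and overlapped in PV mice, while within a mouse stroma was higher in 13 of 13. The difference of 2.26-fold (log2 fold change -1.18 ± 0.17 SE, adjusted p = 1.09e-05) was smaller than those of Mmp2 and Timp2 on the log2 scale, and this gap between genes was not tested.

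Mmp11, stromelysin-3, a protease known from stromal fibroblasts, had the widest spread in stroma. WT stroma ran from 56.8 over 193 to 1104 CPM and PV stroma from 41.8 over 190 to 905. Epithelium held 17.2, 37.7 and 118 CPM in WT and 14.0, 35.9 and 85.3 in PV mice. The compartments overlapped across mice, yet stroma was higher within 13 of 13 mice, by 6.41-fold (log2 fold change -2.68 ± 0.26 SE, adjusted p = 5e-08).

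Timp3, the inhibitor that binds to the matrix and also blocks Adam17 and aggrecanases, measured 69.7, 84.0 and 116 CPM in WT stroma and 72.2, 148 and 221 in PV stroma. Epithelium held 19.6, 35.8 and 72.8 CPM in WT and 10.7, 19.1 and 37.1 in PV mice. Stroma was higher in 13 of 13 mice, by 3.59-fold (log2 fold change -1.84 ± 0.21 SE, adjusted p = 3.98e-07). The smallest gap was in WT1, with a log2 difference of -0.21, and the largest in PV5, with -3.62.

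The 3 genes near the background were Mmp9, Mmp3 and Timp1, and the last 2 had the smallest differences on the log2 scale. The negative-probe level, as a share of all counts, was itself higher in stroma in every mouse with both compartments except PV2. Part of a stroma excess in these 3 genes can therefore be background. Mmp9, the gelatinase of neutrophils and macrophages, had medians of 24.5 CPM in WT and 22.9 in PV stroma and of 10.2 and 8.87 in epithelium. It was higher in stroma in 13 of 13 mice (log2 fold change -1.21 ± 0.15 SE, adjusted p = 1.48e-06). With the negative-probe level subtracted its log2 fold change was -2.05 (adjusted p = 8.91e-06). Mmp3, stromelysin-1, had medians of 12.9 CPM in WT and 15.8 in PV stroma and of 9.57 and 10.8 in epithelium. It was higher in stroma in 12 of 13 mice (log2 fold change -0.49 ± 0.11 SE, adjusted p = 0.000598). Relative to the negative-probe level, Mmp3 was higher in epithelium in PV6 (2.13 against 1.38 times), WT5 (1.53 against 1.42) and WT7 (1.73 against 1.47). In every other mouse with both compartments it was still higher in stroma. The Mmp3 call held in 9 of 9 other alternatives on the first plate, negative-probe subtraction among them (highest adjusted p 0.016). Timp1, the soluble inhibitor induced in inflammation, had medians of 16.0 and 13.6 CPM in WT and PV stroma and of 11.7 and 12.2 in epithelium. It was higher in stroma in only 8 of 13 mice (log2 fold change -0.45 ± 0.15 SE, adjusted p = 0.0148). The Timp1 call was lost with the negative-probe level subtracted (adjusted p = 0.102) and with limma on per-mouse means of the normalised signal (adjusted p = 0.0945).

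Mmp7, matrilysin, a small protease made by gland epithelia, went the other way. Stroma held 4.35, 13.3 and 19.0 CPM in the lowest, median and highest WT mouse and 6.46, 13.1 and 28.4 in the PV mice, near the background in both. In WT epithelium the 8 mice measured 11.5 CPM in WT1, 15.5 in WT4, 16.7 in WT7, 116 in WT5, 163 in WT6, 311 in WT2, 322 in WT8 and 465 in WT3. In PV epithelium the 6 mice measured 5.90 CPM in PV5, 15.0 in PV2, 27.4 in PV6, 148 in PV1, 329 in PV3 and 331 in PV4. In each genotype 3 mice were thus no higher than the highest stroma value of that genotype, and the rest lay well above it. Within WT4 and PV6 epithelium still exceeded stroma, at 15.5 against 4.35 CPM and 27.4 against 6.46 CPM. Epithelium was higher in 11 of 13 mice and lower in WT1 (log2 difference -0.36) and PV5 (-0.14). The fitted log2 fold change was 2.99 ± 0.41 SE (adjusted p = 4.28e-06). Its size varied with the processing while the call held. It was 3.90 with the negative-probe level subtracted (adjusted p = 3.44e-07), 1.92 with limma on per-mouse means of the normalised signal (adjusted p = 0.000249) and 2.01 with limma over regions (adjusted p = 4.2e-10).

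**Figure D2:**
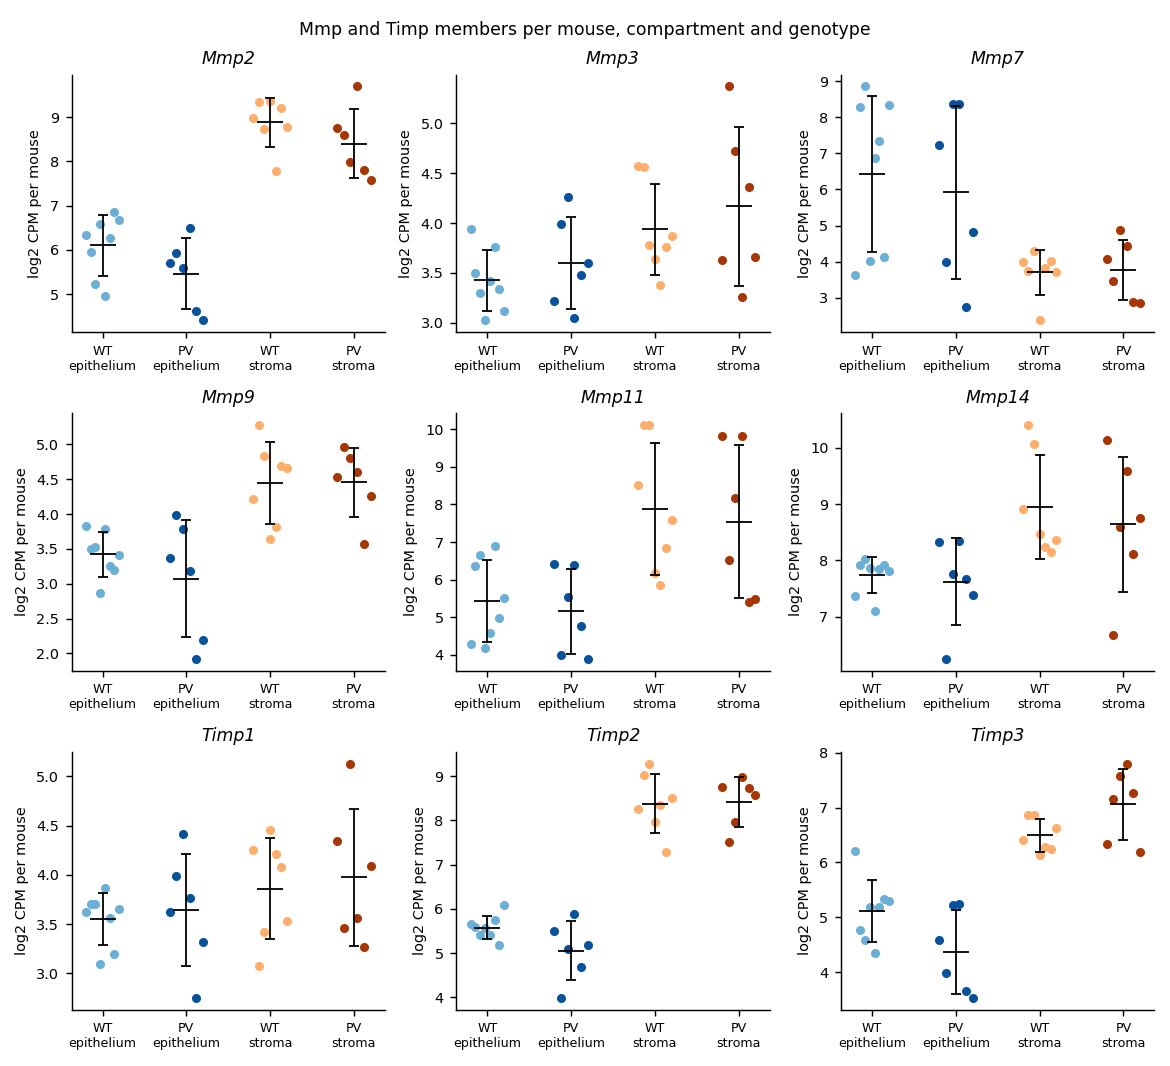
Level of each gene as log2 CPM, 1 panel per gene and 1 point per mouse, for WT and PV epithelium (blue) and WT and PV stroma (orange), with the mean and SD in black. Mmp2 and Timp2 do not overlap between compartments, Mmp7 is the gene with higher epithelium, and within each compartment the WT and PV ranges overlap in all 9 panels.

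The compartment difference was also fitted within each genotype. In WT mice 8 of the 9 genes were called, where 48.9% of all targets were, and in PV mice 8 of 9, where 49.5% were. Timp1 was the gene not called, with an adjusted p of 0.0945 in WT and 0.102 in PV mice. Mmp7 had a log2 fold change of 2.78 ± 0.55 SE in WT and 3.27 ± 0.64 SE in PV mice. Mmp2 had -2.82 ± 0.17 and -3.01 ± 0.20, Timp2 -2.85 ± 0.19 and -3.33 ± 0.23, and Timp3 -1.40 ± 0.22 and -2.50 ± 0.27.

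**Figure D3:**
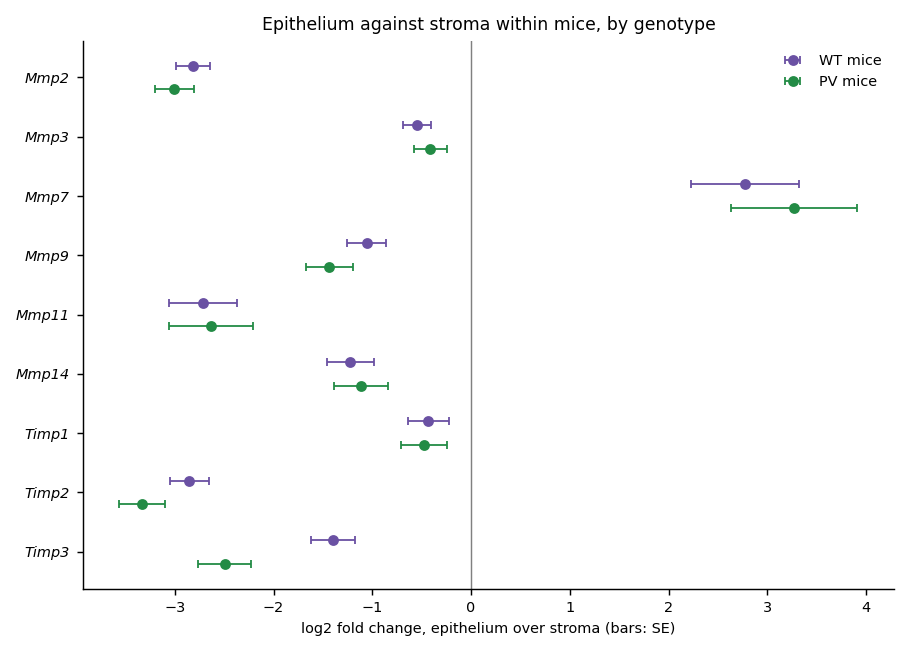
Log2 fold change of epithelium over stroma with its SE for each gene, fitted within mice, in WT (purple) and PV (green) mice. Values right of 0 are higher in epithelium, which holds for Mmp7 only, and the gap between the genotypes is widest for Timp3 (-1.40 in WT and -2.50 in PV).

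The second comparison asked whether the genes differed between PV and WT mice. None of the 9 was called in epithelium, where 0% of all targets were, and none in stroma, where 0% were (lowest adjusted p over all targets 0.116 and 0.579). At an unadjusted p under 0.05, 0 of the 9 passed in epithelium against 8.22% of all targets, and Timp3 alone passed in stroma against 3.52%. Exact permutation tests of the per-mouse log2 CPM (18 tests, two-sided, over 3003 divisions of the mice in epithelium and 1716 in stroma) gave 0 values under 0.05. In all 18 the ranges of PV and WT mice overlapped. With DESeq2 28 and 2 targets were called in epithelium and stroma, none of the 9 genes among them.

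Timp3 had the lowest p in both compartments and moved in opposite directions by value. Per-mouse log2 CPM in epithelium was 4.37 ± 0.76 (SD, n = 6) in PV and 5.12 ± 0.57 (SD, n = 8) in WT mice, and the median of the WT mice exceeded 4 of the 6 PV values (p = 0.0573 by exact permutation). In stroma it was 7.06 ± 0.65 (SD, n = 6) in PV and 6.49 ± 0.30 (SD, n = 7) in WT mice, and 4 of the 6 PV values exceeded the median of the WT mice (p = 0.0688 by exact permutation). The fitted PV over WT log2 fold change was -0.56 ± 0.33 SE in epithelium (p = 0.105, adjusted p = 0.67) and 0.67 ± 0.26 SE in stroma (p = 0.0173, adjusted p = 1). Without PV4, whose stroma of 221 CPM was the highest, the stroma p was 0.079.

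The genotype by compartment term tests whether the compartment difference itself differed between PV and WT mice. None of the 9 genes was called, where 0% of all targets were, and Timp3 alone had an unadjusted p under 0.05, against 7.24% of all targets. Its term was -1.10 ± 0.35 SE on the log2 scale (p = 0.00553, adjusted p = 0.574), and the adjusted p stayed between 0.283 and 0.833 when each mouse was left out. The lowest Timp3 values in PV epithelium were 10.7 CPM in PV6, 11.8 in PV5 and 15.0 in PV2, the last of them from 1 count. With both plates together the term was -0.04 (p = 0.863). By markers 40 of the 94 second-plate regions lay on the other side of their compartment label, so this value cannot test the term.

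Lists of stromal cell markers had negative medians in the genotype by compartment term, although single smooth muscle markers reached 0.11. Over all targets 7.24% had an unadjusted p under 0.05 in this term. The 9 kept macrophage markers had a median of only -0.17, with 0 called and 0 at an unadjusted p under 0.05. The 10 fibroblast markers had a median of -0.56, with 0 called and 4 at an unadjusted p under 0.05, the 7 kept smooth muscle markers (Acta2, Myh11 and others) -0.59, with 0 called and 3 at an unadjusted p under 0.05, and the 8 endothelial markers (Pecam1, Cdh5 and others) -0.47, with 0 called and 4 at an unadjusted p under 0.05. In stroma the smooth muscle markers had a median PV over WT log2 fold change of 0.76, with 0 called and 2 at an unadjusted p under 0.05, against 3.52% of all targets. They summed to 509.8 to 1612 CPM in PV and 314 to 1214 in WT mice. The endothelial markers had 0.32 there, the fibroblast markers 0.01 and the macrophage markers -0.35. The part of these cells in the Timp3 values was not tested.

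Mmp2 had a log2 fold change of -0.59 ± 0.35 SE in epithelium (adjusted p = 0.675) and -0.35 ± 0.34 SE in stroma (adjusted p = 1), and in each compartment 5 of the 6 PV values were under the median of the WT mice. Timp2 had -0.25 ± 0.20 in epithelium and 0.03 ± 0.31 in stroma, and in epithelium 5 of the 6 PV values were under the median of the WT mice (p = 0.0659 by exact permutation). The lowest of these, PV2, rests on 1 count. The fibroblast markers were lower by value in PV epithelium too, with a median log2 fold change of -0.59 over the 10 genes. Of these 0 were called and 3 had an unadjusted p under 0.05, against 8.22% of all targets. With the fibroblast score of each mouse as a covariate the epithelium values were -0.15 for Mmp2, -0.07 for Timp2 and -0.21 for Timp3. None of the 9 genes was called with or without the score, where 0 targets were in either fit. This fit does not test where the RNA came from, and the part of stromal RNA in these values was not tested.

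Mmp14 had 0.07 ± 0.24 in epithelium and -0.17 ± 0.47 in stroma, and Mmp11 had -0.08 ± 0.49 and -0.12 ± 0.77. The wide errors of Mmp11 follow the spread between mice in both genotypes. Mmp9 had -0.34 ± 0.26 and 0.02 ± 0.26, Mmp3 0.04 ± 0.23 and -0.01 ± 0.29, and Timp1 0.12 ± 0.22 and 0.21 ± 0.29. Mmp7 had -0.21 ± 0.85 in epithelium and 0.27 ± 0.32 in stroma, so that the interval of 1 SE in epithelium covers both a lower and a higher level in PV mice. A p above the threshold does not show that the genotypes were alike.

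**Figure D4:**
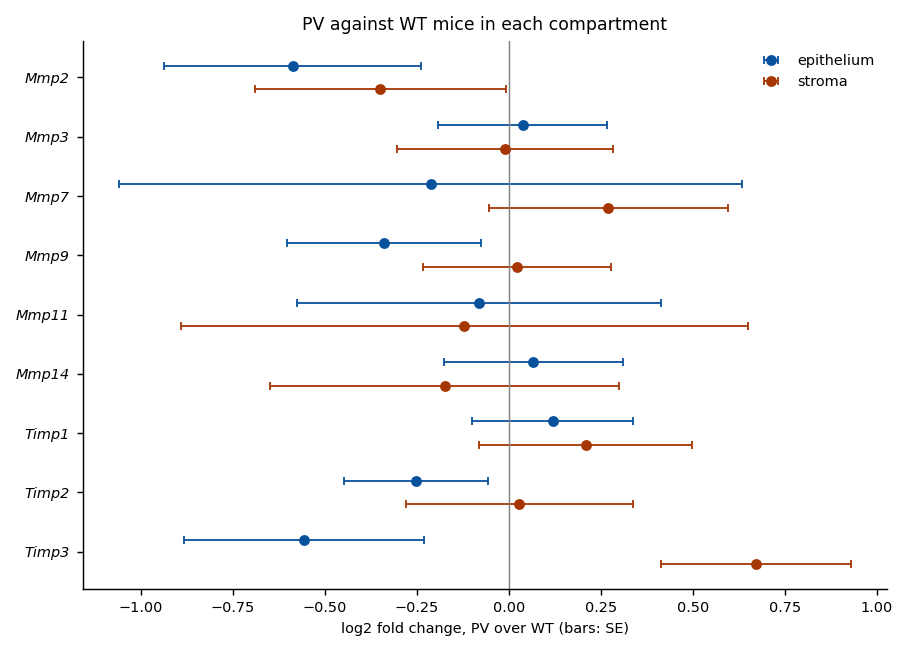
Log2 fold change of PV over WT mice with its SE for each gene in epithelium (blue) and stroma (orange). Timp3 is the gene whose values lie furthest apart between compartments, at -0.56 in epithelium and 0.67 in stroma, and the bar of Mmp7 in epithelium is the widest.

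PV mice were younger, and genotype was also fitted within 2 age classes, under 5 months and from 5 months. The difference between the classes was called for none of the 9 genes in epithelium or stroma, where 0% of all targets were in each. At an unadjusted p under 0.05 the class term passed for 1 of 9 genes in epithelium against 3.61% of all targets, and for 2 of 9 in stroma against 5.52%. Mmp11 was the gene in both, with a term of -2.64 ± 1.02 SE in epithelium (p = 0.0201, adjusted p = 1) and -4.22 ± 1.67 SE in stroma (p = 0.0212, adjusted p = 0.886). With a mouse left out the term ran from -3.67 without PV3 to -1.94 without PV6 in epithelium and from -6.13 without PV3 to -3.40 without PV6 in stroma. The unadjusted p was then above 0.05 in both compartments without PV6 (0.119 and 0.09) and without WT4 (0.0792 and 0.0793). In stroma its PV over WT log2 fold change was 2.45 ± 1.21 SE under 5 months and -1.77 ± 1.15 SE from 5 months. The values behind it were 71.8 and 113 CPM in the WT mice under 5 months, WT4 and WT7, against 902, 905, 91.4 and 41.8 CPM in PV1, PV4, PV2 and PV5. From 5 months the WT mice held 56.8 to 1104 CPM, and PV3 and PV6 held 288 and 44.2. Timp2 was the other gene in stroma, with a term of -1.43 ± 0.61 SE (p = 0.0298, adjusted p = 0.886), and its unadjusted p ran from 0.00706 to 0.15 with a mouse left out.

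Within a single age class, too, no gene of the 9 was called between PV and WT mice. Under 5 months, with 2 WT and 4 PV mice, Mmp7 alone had an unadjusted p under 0.05 in epithelium, against 6.50% of all targets, with a log2 fold change of 3.19 ± 1.39 SE (p = 0.0354, adjusted p = 0.716). Its epithelium measured 148 and 331 CPM in PV1 and PV4, but 15.0 (1 count) and 5.90 CPM in PV2 and PV5. WT4 and WT7 held 15.5 and 16.7 CPM. PV2 and PV5 were 2.4 months old and WT4 and WT7 4.0 and 4.5, so age and genotype cannot be told apart within this class. In stroma of that class 2 of the 9 genes had an unadjusted p under 0.05, against 7.86%, Timp3 with 1.06 ± 0.41 SE (p = 0.0184, adjusted p = 0.544) and Timp2 with 0.99 ± 0.44 SE (p = 0.0373, adjusted p = 0.608). From 5 months 0 of the 9 did in epithelium, against 4.56%, and Mmp2 alone did in stroma, against 3.57%, with -1.02 ± 0.48 SE (p = 0.0499, adjusted p = 1).

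The spread of Mmp7 and Mmp11 was followed to single regions with the authors' normalised signal, in which the counts of a region are divided by its upper quartile (Q3). Mmp7 differed between epithelium regions of the same mouse. The highest region exceeded the lowest by 24.0-fold in PV1 (10.0 to 241, 15 regions), by 20.8-fold in WT5 (7.73 to 161, 6 regions) and by 12.1-fold in PV4 (25.8 to 311, 8 regions). In WT4 and WT7 all regions were low, from 8.62 to 9.07 and from 4.71 to 15.3. Over 2 times the negative-probe level were 23 of 29 WT and 28 of 31 PV epithelium regions.

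Mmp11 in stroma differed more between mice than within most of them. The 10 regions of PV1 ran from 381 to 732 and the 4 of PV4 from 414 to 754, while those of PV5 ran from 22.5 to 26.6 and those of WT5 from 30.9 to 46.6. WT1 was the exception, with 1 region at 683 beside a lowest of 21.9. Mmp14 in the stroma regions of WT1 ran from 184 to 624. Of the variance of Mmp11 over stroma regions, 97.0% lay between mice in PV and 42.1% in WT. For Mmp7 over epithelium regions these shares were 57.4% and 62.4%.

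**Figure D5:**
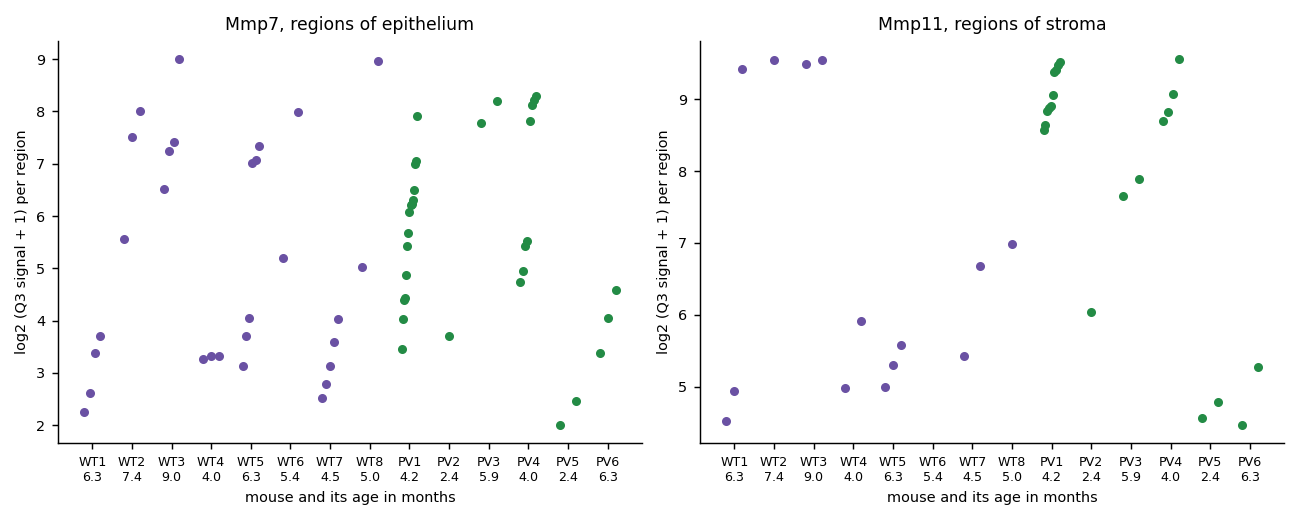
Normalised signal as log2 (Q3 signal + 1) in each region, by mouse with its age in months, for Mmp7 in epithelium (left) and Mmp11 in stroma (right), WT in purple and PV in green, ordered by value within a mouse. Mmp7 spreads within single mice such as PV1 and WT5. Mmp11 separates whole mice in PV stroma, while in WT stroma the regions of WT1 spread widely. High and low mice occur in both genotypes.

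Some of the genes varied together. Across 32 stroma regions, after the mean of each mouse was removed, Mmp11 and Mmp14 had a Pearson r of 0.835, Mmp2 and Mmp14 of 0.778 and Mmp2 and Timp2 of 0.735. Across 59 epithelium regions Mmp2 and Timp2 had 0.680, and Mmp7 ran opposite to Mmp2 with -0.513 and to Timp2 with -0.490. In normalised signal the 3 stroma regions of WT1 ran from 21.9 to 683 for Mmp11 and from 184 to 624 for Mmp14. For Mmp2 they ran from 196 to 620. The r values without WT1 were not computed. All these regions share mice, slides and depth, and the r values are descriptions only.

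For each gene the targets with the most similar pattern were taken over the 27 sums, after the mean of each genotype and compartment was removed. Mmp7 was most like Cfb (Pearson r 0.889), a complement factor, then Pglyrp1 (0.869), which binds bacterial peptidoglycan, and Cfi (0.861), another complement factor. Mmp11 was most like Sox4 (0.904), Man2b1 (0.864) and Gpnmb (0.862). Mmp14 was most like Npc2 (0.894), Bach1 (0.875) and Grn (0.870), and Timp2 like Aebp1 (0.850), Tgfb1i1 (0.838) and Serinc3 (0.785). Mmp2 was most like Pltp (0.818), Adcy7 (0.796) and Marcksl1 (0.786), and Mmp9 like the leukocyte genes Sirpb1a (0.827), Bin2 (0.822) and Cd72 (0.818). Mmp3 was most like Frmpd2 (0.880), Olfr889 (0.855) and Tmem241 (0.854), Timp1 like Olfr239 (0.814), Chrne (0.762) and Dnmt3l (0.753), and Timp3 like Vmn1r191 (0.746), Kif26b (0.677) and Smim38 (0.674). Olfactory and vomeronasal receptor genes are not known from the uterus, and the genes they accompany include 2 of those near the background. Mmp9 is also near the background, so its r values rest on few counts too.

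Mmp9 is best known from leukocytes, so their markers were set beside it. The macrophage list summed to 244 to 3075 CPM in stroma and to 106 to 452 in epithelium. Of its 9 kept genes 8 were called higher in stroma, against 34.3% of all targets. Of the 6 kept neutrophil markers 4 were called higher in stroma and 1 higher in epithelium, against 34.3% and 28.9% of all targets. Ltf, lactoferrin, which uterine epithelium also makes, reached 6063 CPM in epithelium, while Ly6g, the defining neutrophil marker, stayed at 9.36 to 30.0 CPM in all mice. The part of leukocytes in the Mmp9 difference was not tested.

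The other genes of the system were taken from 4 lists. Over all targets 34.3% were called higher in stroma and 28.9% higher in epithelium. Of 18 other Mmp and Timp genes 11 were kept, of which 8 were called higher in stroma, 1 higher in epithelium and 2 in neither direction. Mmp15, a membrane-anchored protease, was the gene higher in epithelium (log2 fold change 1.55 ± 0.10 SE). Mmp19 (-1.67 ± 0.17), Mmp16 (-1.42 ± 0.16) and Mmp17 (-0.82 ± 0.13) led those higher in stroma. Mmp1b, Mmp8, Mmp10, Mmp12, Mmp13, Mmp21 and Mmp24 did not pass the authors' filter and exceeded 2 times the negative-probe level in 3 to 26 of 95 regions.

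Of 15 kept activators, inhibitors and receptors that act on these proteases, 9 were higher in stroma, 3 higher in epithelium and 3 in neither direction. The shares over all targets were again 34.3% and 28.9%, also for the lists that follow. Lrp1, the scavenger receptor that clears proteases and Timps, had a log2 fold change of -2.93 ± 0.16 SE, Ctsk, cathepsin K, -2.12 ± 0.14 and Reck, a membrane inhibitor, -2.04 ± 0.16. Furin, which cuts the propeptide of Mmp14 and Mmp11, had 0.87 ± 0.11, Bsg, the inducer of Mmps also called basigin, 1.15 ± 0.15 and Plat, tissue plasminogen activator, 1.79 ± 0.34. The related Adam and Adamts proteases gave 14 of 17 higher in stroma, led by Adam12 (-2.82 ± 0.14), Adamts10 (-2.09 ± 0.11) and Adam19 (-2.19 ± 0.14), and 3 higher in epithelium, Adam9 (1.07 ± 0.12), Adam10 (0.70 ± 0.11) and Adam17 (0.53 ± 0.11). Of 13 kept matrix substrates 10 were higher in stroma, led by Nid1 (-2.78 ± 0.12), Col3a1 (-2.78 ± 0.15) and Col4a2 (-2.70 ± 0.15), and 3 higher in epithelium, among them the laminin chain Lama5 (2.44 ± 0.13) and osteopontin, Spp1 (1.32 ± 0.43). Between PV and WT mice none of these kept genes was called in epithelium or stroma, where 0% of all targets were in each.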

How the data were processed

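GeoMx whole-transcriptome profiles of mouse uterus regions were used. The deposited count table holds expected counts per target and region made by the authors, with 0 replaced by 1. The deposited normalised table holds signal values, which the authors made by dividing the counts of a region by its upper quartile (Q3) and by keeping 14881 targets detected above the negative probes in enough regions. Probe sequences were not used. The submitters' processing notes name mm10, and for the probes themselves no build was found in the labels or methods. The labels name 14 mice and the design text 13, and the 14 were used. Ages stand in the labels without a unit and are taken to be months. Mice are numbered within a genotype in accession order.

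The members and lists were chosen with earlier results of these data known. All 9 members were named. From the other lists, at most 3 called genes per direction were named, those of lowest p, and for each member the 3 genes of highest Pearson r. 1 gene is not reported here. Leukocyte marker genes were named after their values were seen. First-plate counts were summed per mouse and compartment, rounded, and tested in R 4.3.3 with the edgeR 4.0.16 quasi-likelihood test (TMM scaling, two-sided, Benjamini-Hochberg over 14881 targets, adjusted p threshold 0.05). The SE of an edgeR log2 fold change was derived as its absolute value over the square root of the F statistic of the test. It is approximate, and its ratio to the fold change need not match the printed p. Per-mouse levels are CPM with TMM scaling, and log2 CPM with a prior count of 2. Compartments were compared with the mouse as a block, since both compartments came from the same animal: after subtraction of the group mean, the epithelium and stroma of a mouse had a correlation of 0.16 to 0.526 over targets (over 0.1 in 13 of 13 mice), and those of 2 different animals had a median of -0.0373. Exact permutation tests used SciPy 1.17.1. The fits were tested on simulated data. Alternatives were DESeq2 1.42.0, limma 3.58.1 (per-mouse means and regions, pseudocount 1), other scalings and filters, negative-probe subtraction, the plates, covariates and each mouse left out. Precision is limited by 6 and 8 mice and by regions of 61691 to 3130397 counts.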

Additional observations from a re-analysis of the deposited data

Results flagged for a closer look

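Of 36 groups of mice, 9 genes in 4 groups, 2 held a mouse far from the others by the gap to its nearest neighbour over the whole range of the group, a measure that chance passes in about 1 group in 20. Mmp2 in WT stroma was lowest in WT5, with a log2 CPM of 7.79 (220 CPM) against 8.73 (423 CPM) in the next mouse. Mmp7 in WT stroma was lowest in WT4, with a log2 CPM of 2.38 (4.35 CPM from 6 counts) against 3.71 (12.2 CPM) in the next mouse.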

How the results depend on the processing

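The compartment calls of all 9 genes held when each mouse was left out (8880 to 9394 targets called) and without the replicate block (9 genes and 7886 targets called, against 9398 with it), which ended no call among the 9 genes and called none in the genotype by compartment term. On the second plate alone 0 of the 9 genes and 0 targets were called, and both plates together called 5631 targets and 7 of the 9 genes, without Mmp3 (adjusted p = 0.359) and Timp1 (adjusted p = 0.164). The second plate turned the sign of Mmp3 (0.21), Timp1 (0.10), Timp2 (0.05) and Timp3 (0.34), and 40 of its 94 regions lay on the other side of their label by markers. For PV against WT, 0 of the 9 genes were called under any alternative, although DESeq2 gave 3 of them no adjusted p in epithelium. Targets called in epithelium were 28 with DESeq2, 10 with age as a covariate, 1 with limma over regions and 0 to 6 with a mouse left out, and in stroma 2, 0, 2 and 0 to 1. The genotype by compartment term called 82 targets with limma over regions and 1 with DESeq2. The age class term called 0 to 5 targets in epithelium and 0 to 3 in stroma with a mouse left out, and 1 in stroma with DESeq2. The cause of these counts was not tested. Of 234 genotype values in epithelium and 225 in stroma under alternatives, 30 and 53 had the opposite sign, none of them called. Depth limits Mmp3, Mmp9 and Timp1, whose sums are near the negative-probe level.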
